A study of Homo sapiens with 6 samples.

Results

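Nucleolar and growth genes known as targets of the transcription factor MYC were followed in MCF10A-HER2/3 cells, which derive from MCF10A, a non-tumorigenic line of human breast epithelium, and were grown as a three-dimensional culture. The list held 36 genes chosen by function, with earlier results of these data known. A gene was measured when a probe set carried its symbol and no other. This left 32 measured genes among 18377 genes tested. NOP56, NME1 and PPAN lay only on probe sets with several symbols, and no probe set named GNL3 in the annotation used here. BOP1 was the only measured member with more than 1 such probe set, and its brighter one was kept.

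All cultures carried a doxycycline-inducible lentiviral construct, received doxycycline from the day after seeding, renewed every 2 days, and were harvested at day 15. The medium was DMEM/F12 with horse serum, hydrocortisone, cholera toxin, insulin and EGF, and a supplement labelled PS. The construct expressed CTRL miR, SHP2 miR1 or SHP2 miR2, the latter pair directed against SHP2, the tyrosine phosphatase encoded by PTPN11. Each of the 3 groups had 2 Affymetrix HuGene-1_0-st-v1 arrays, and doxycycline and transduction were shared by the controls. The labels do not say whether replicates came from separate cultures or whether a line was 1 clone, so a p-value here speaks only for array-to-array spread, which could be technical. The comparison bears on how transcript levels depend on SHP2.

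Ribosome biogenesis starts in the nucleolus, where RNA polymerase I transcribes the ribosomal RNA precursor. Small nucleolar ribonucleoproteins (snoRNPs) modify that precursor, the small subunit processome cuts it, and separate sets of assembly factors build the 40S and 60S subunits. MYC binds the E-box CACGTG together with MAX and raises transcription of many of these genes, along with genes for nucleotide and polyamine synthesis, and in mammary epithelium it acts downstream of growth factor receptors.

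The E-box was searched in RefSeq promoter windows of assembly GRCh38.p14, each reaching from 250 bases before to 50 bases after an annotated start. CACGTG reads the same on both strands, so 1 search covers both. Windows were matched by symbol for 26 of the 32 measured members, and 16 of the 26 (61.5%) held at least 1 E-box in a window. The share was 10.9% of the 14184 other genes on the arrays that had a window, and 7.26% of all 35116 windows of the table. Base composition of the windows was not matched. Because the members were listed as MYC targets, this share describes the list and is no independent evidence about it.

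The sites are shown for the members with the largest positive and negative differences that had an E-box, 5′ to 3′ on the gene's strand, with the E-box in capitals. The same 6 bases lie close to the start in each. These members were picked by the sign of their differences, so their opposite signs were set by that choice. None of these average differences passed. The RefSeq positions are, in the order listed, chr10:68956604-68956633 (+), chr6:41921515-41921544 (+), chr12:101280083-101280112 (+), chr19:39846356-39846385 (-), chr3:51941892-51941921 (-), chr2:10448024-10448053 (-) and chr2:10447990-10448019 (-).
DDX21: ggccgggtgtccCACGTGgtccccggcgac
BYSL: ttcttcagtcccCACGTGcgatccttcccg
UTP20: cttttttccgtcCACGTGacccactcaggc
FBL: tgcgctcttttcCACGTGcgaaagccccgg
RRP9: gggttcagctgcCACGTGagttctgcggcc
ODC1 upstream: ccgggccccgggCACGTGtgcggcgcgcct
ODC1 downstream: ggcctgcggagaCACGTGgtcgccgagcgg

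The windows of the measured members held 18 distinct E-boxes, 14 of them within 50 bases of a start and 9 after it. The first base of the site lay at -31 in DDX21, -10 in UTP20, -5 in RRP9, 7 in FBL and 29 in BYSL, where 1 is the first transcribed base. ODC1 held a pair at -29 and 6 of the same start. DDX21 and ODC1 each had 2 windows, and their E-boxes lay in only 1 of them. Among the role groups, 4 of the 4 small subunit members with a window held an E-box, against 3 of 7 members of 60S assembly and 2 of 5 members that serve ribosomal RNA gene transcription. No match says only that these letters are absent from the window searched.

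CDK4 and the gene pair HSPD1 and HSPE1 had other arrangements, shown because CDK4 held 3 E-boxes well before its start and the pair shares a single one. HSPD1 and HSPE1 are transcribed away from each other from starts with 104 bases between them. The stretches are chr12:57752400-57752532 (-) and chr2:197500275-197500378 (+, the strand of HSPE1).
CDK4: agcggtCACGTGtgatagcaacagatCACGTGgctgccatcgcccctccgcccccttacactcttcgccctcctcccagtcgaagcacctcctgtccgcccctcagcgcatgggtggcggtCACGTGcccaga
HSPD1 and HSPE1: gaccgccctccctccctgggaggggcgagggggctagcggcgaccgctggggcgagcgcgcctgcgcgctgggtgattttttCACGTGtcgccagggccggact

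**Figure D1:**
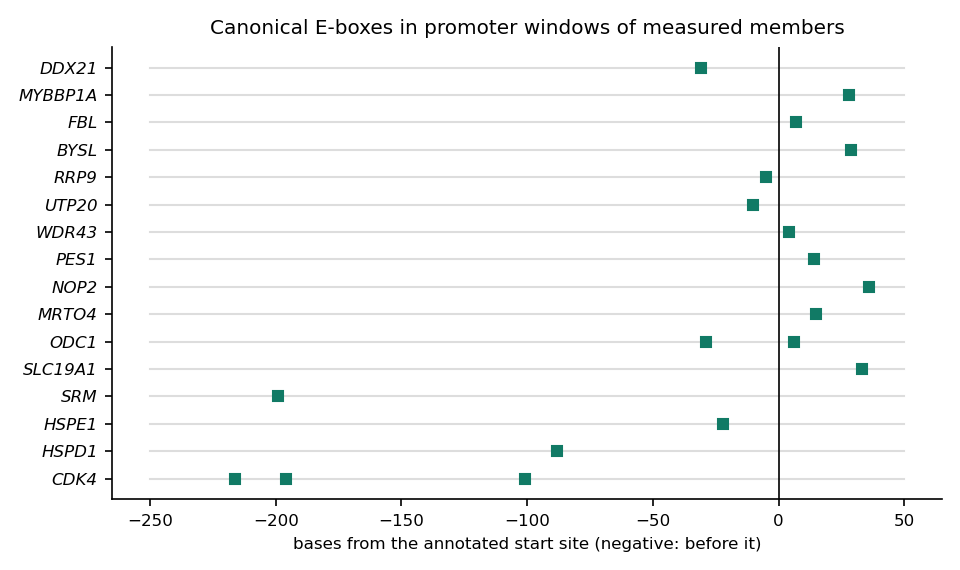
Positions of E-boxes in promoter windows of the measured members. The x axis gives bases from the annotated start, with negative values before it; each square is an E-box as seen from 1 start, so the box shared by HSPD1 and HSPE1 is drawn for both, and each grey line 1 window of 300 bases. The boxes gather around the start, except in CDK4, SRM and HSPD1.

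Array values are the deposited log2 values, given for both control arrays, both SHP2 miR1 arrays and both SHP2 miR2 arrays in that order. Levels of different probe sets are not compared, since probes differ in brightness. Array medians lay between 5.23 and 5.35 and replicates correlated at 0.985 to 0.986 over genes. Probe set values spread less on the SHP2 miR1 arrays, with an SD of 1.92 on each, than on the controls (1.99 and 2.02) or the SHP2 miR2 arrays (1.95 and 1.97). Of 8 basal epithelial markers 4 were measured, all above the 40th percentile of probe sets (4.76), with array means from 10.09 to 10.63 and KRT5 the brightest. All 32 members lay above that percentile too. So did 5 of 7 fibroblast markers (DCN 8.30), 3 of 5 leukocyte markers (CD68 9.22), 1 of 5 endothelial markers (PECAM1 5.38) and 2 of 4 adipocyte markers (PLIN1 5.19), while PTPRC (3.33), which defines leukocytes, and CDH5 (4.28), which defines endothelium, lay below it. Of the 4 basal markers 1 rose on average (KRT14, 1.10, limma adjusted p = 0.0044), where 1.53% of all genes rose. Endothelial markers had array means of 4.55 and 4.64 in the controls, 4.83 to 4.99 with SHP2 miR1 and 4.63 to 4.64 with SHP2 miR2. Of these 5, 1 rose on average (PECAM1, 0.60, limma adjusted p = 0.0422), and 2 rose with SHP2 miR1 (PECAM1 and KDR), where 2.66% of all genes rose. Leukocyte markers had array means of 5.67 and 5.70, then 5.89 to 5.92, then 5.72 to 5.93, and with SHP2 miR1 CD14 rose and CD68 fell. Of 7 fibroblast, 4 adipocyte and 5 general epithelial markers 0 passed, and all 5 of the last lay above the 40th percentile. The part of these cell types in the results was not tested.

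PTPN11 stood at 7.96 and 8.44 in the controls, at 6.04 and 5.71 under SHP2 miR1, and at 6.90 and 7.28 under SHP2 miR2. It fell by 1.72 on the log2 scale averaged over both SHP2 miRs (SE 0.19, limma adjusted p = 0.00184) and by 2.32 with SHP2 miR1 (adjusted p = 0.000548). SHP2 miR2 gave -1.11, which did not pass (limma adjusted p = 0.0813), although both of its arrays lay below both controls. The targeted transcript was therefore lowest on the arrays labelled SHP2 miR1.

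MYC itself read 9.44 and 9.63 in the controls, 9.32 and 9.40 under SHP2 miR1, and 9.70 and 9.53 under SHP2 miR2. The average difference was -0.05, with a 95% interval from -0.35 to 0.25 (limma adjusted p = 0.866). The SHP2 miR1 arrays lay just below both controls and the SHP2 miR2 arrays overlapped them. Of 9 genes for MYC and its partners 0 passed in any comparison. On average 1 had an unadjusted p under 0.05, against 12.6% of all genes as lower and 8.31% as higher. MXD1, a MAX partner that opposes MYC, differed by -0.40 (limma adjusted p = 0.197). MLX, a partner of a related network, differed by -0.20 (adjusted p = 0.459).

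Averaged over both SHP2 miRs, 0 of the 32 members passed an adjusted p of 0.05 in limma, where 4.2% of all genes passed, 1.53% as higher and 2.67% as lower. Unadjusted p-values under 0.05 numbered 4 on the lower side (12.6% of all genes) and 3 on the higher side (8.31%), shares close to those of all genes. The median difference of the members was -0.09, against 0.02 for all genes, and 22 of 32 were below 0, against 47.2% of all genes. The intervals show what the arrays could resolve: their median width was 0.6 log2 units, the lowest bound was -0.87 (HSPE1) and the highest 0.77 (ODC1). In bulk RNA, fewer cells of a type and less RNA per cell cannot be told apart.

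Each SHP2 miR was also set separately against the control arrays, which both comparisons share. With SHP2 miR1, 0 of 32 members passed (8.6% of all genes), the median was -0.19 against 0.04 for all genes, and 23 were below 0 (45.9% of all genes). With SHP2 miR2, 0 passed (0.37% of all genes), the median was -0.02 against -0.01, and 17 were below 0 (51.8%). Unadjusted p-values under 0.05 fell on the lower side for 9 members with SHP2 miR1 (16% of all genes) and for 0 with SHP2 miR2 (5.88%). On the higher side there was 1 with SHP2 miR1 (12.1%), ODC1, and there were 3 with SHP2 miR2 (5.14%), FBL, RRP9 and ODC1.

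The SHP2 miR2 arrays lay below both controls for 1 member (20.8% of all genes) and above both for 7 (19.8%). On the SHP2 miR1 arrays 19 of 32 members lay below both controls, a pattern that 29% of all genes showed, and 6 lay above both (30.5%). Brightness moved with this result. In the brightest 25% of genes, which held 29 of the members, 48.2% of genes lay below both controls on the SHP2 miR1 arrays, and 17 of the 29 members did so. The median SHP2 miR1 difference of those bright genes was -0.12, where the 29 members had -0.20, and the dimmest 25% of genes had 0.13. With quantile normalization the count below both controls was 14 of 32 and the members' median -0.09. The share of all genes with that pattern after quantile normalization was not set beside this count. Centring each array on its median moved the median of all genes from 0.04 to -0.04 and the members' median to -0.27, and turned the share of all genes called from 5.94% lower and 2.66% higher to 8.36% lower and 2.06% higher. The part of the narrower SHP2 miR1 intensity range in the members' median was not tested beyond these values.

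**Figure D2:**
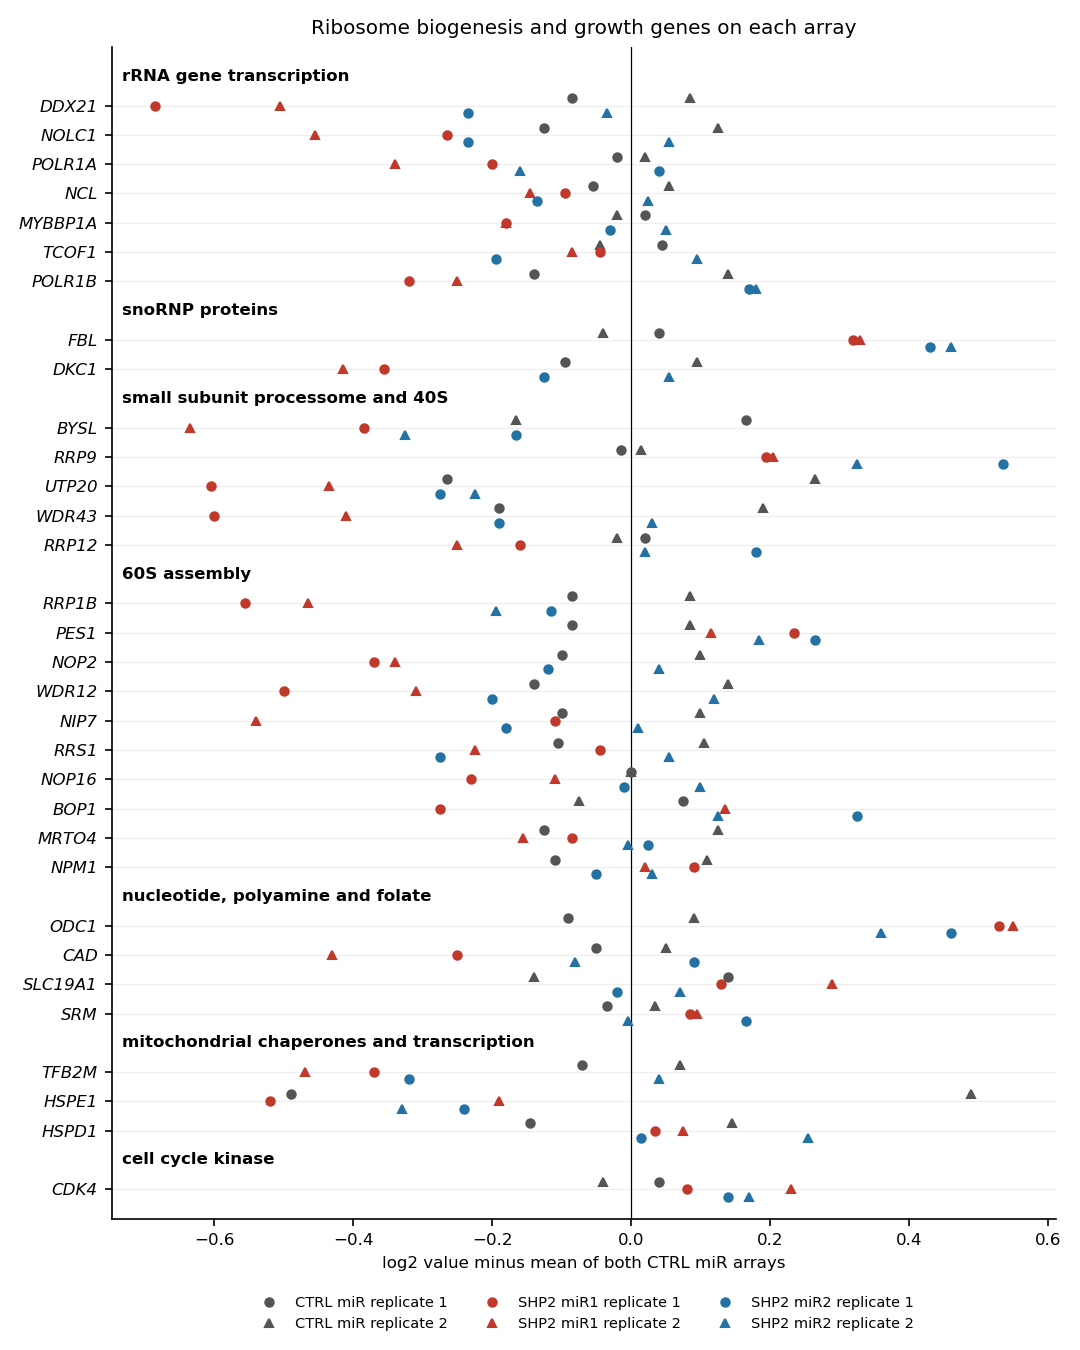
Each measured member on each array. The x axis gives the log2 value minus the mean of both control arrays; grey, red and blue mark CTRL miR, SHP2 miR1 and SHP2 miR2, and circles and triangles mark replicates 1 and 2. Red points lie left of both grey points in 19 of 32 members, and all red and blue points lie right of them in FBL, RRP9, PES1, ODC1 and CDK4.

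The SHP2 miRs were also set directly against each other, which leaves out the controls. SHP2 miR2 minus SHP2 miR1 had a median of 0.22 over the members and 0 over all genes. Above 0 were 28 of the 32 members, while 50% of all genes were below 0. The brightest 25% of genes had a median of 0.1, with 31.2% below 0, and the 29 members among them had 0.23. None of the 32 passed in limma (0.19% of all genes, 0.152% higher and 0.0381% lower), while 5 had an unadjusted p under 0.05 on the higher side (8.72%) and 0 on the lower side (8.94%). The SHP2 miR2 arrays lay above both SHP2 miR1 arrays for 19 members (26.4% of all genes), and 18 of these were among the 29 members in the brightest 25% of genes, where 43.9% of genes did so. The reverse held for ODC1 and SLC19A1 (25.4% of all genes).

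**Figure D3:**
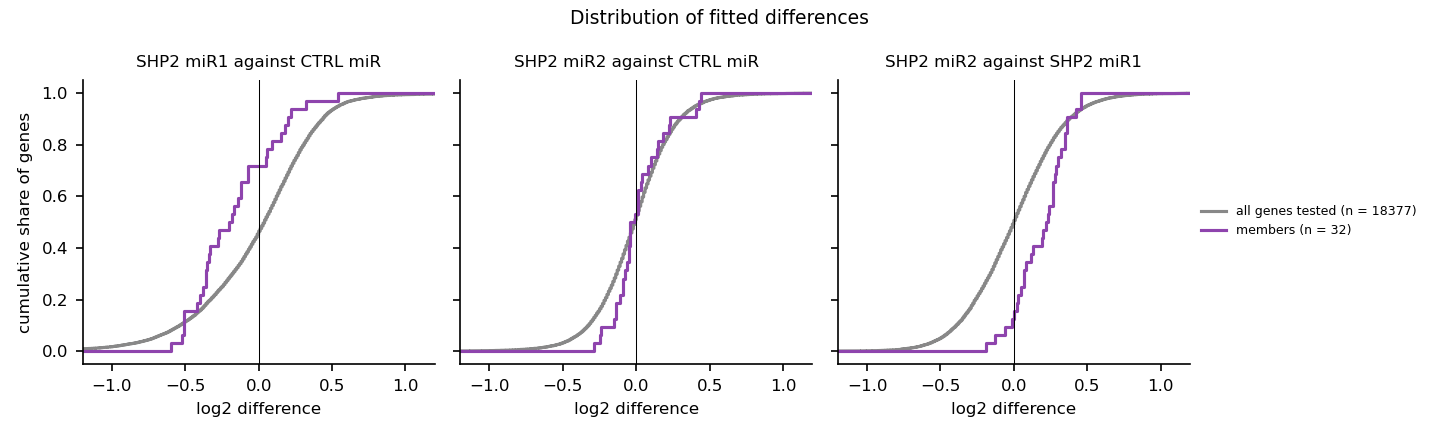
Cumulative share of genes by fitted log2 difference, for the 32 members (purple) and all 18377 genes (grey), in 3 comparisons; the axis ends leave out the tails of all genes. The member curve lies left of all genes for SHP2 miR1, close to it for SHP2 miR2, and right of it for SHP2 miR2 against SHP2 miR1.

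Among the members that serve transcription of ribosomal RNA genes, 7 of 7 had an average difference below 0 and none passed the test. Below 0 on average were 47.2% of all genes and 60.3% of the brightest 25% of genes. DDX21, an RNA helicase that senses polymerase I activity (probe set 7927936), stood at 8.80 and 8.97 in the controls, 8.20 and 8.38 under SHP2 miR1, and 8.65 and 8.85 under SHP2 miR2. Both SHP2 miR1 arrays were lower than the other 4, and the SHP2 miR2 arrays overlapped the controls. The SHP2 miR1 difference was -0.60 (SE 0.16, 95% interval -0.96 to -0.23) with a limma adjusted p of 0.0524. The average was -0.37 (adjusted p = 0.182), and the direct difference between the SHP2 miRs was 0.46 (95% interval 0.10 to 0.82, adjusted p = 0.205). The SHP2 miR1 difference passed when dim genes were left out of the fit (adjusted p = 0.0316), with a mean-variance trend (adjusted p = 0.00302) or with arrays centred on their medians (adjusted p = 0.0342), and did not pass with quantile or cyclic loess normalization.

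The other genes of this group had smaller average differences. NOLC1, a nucleolar phosphoprotein that works with polymerase I and snoRNPs, had -0.22, and POLR1A, the largest polymerase I subunit, had -0.17. Nucleolin (NCL) had -0.09, the nucleolar MYB-binding protein MYBBP1A -0.08 and treacle (TCOF1), which links the polymerase to its initiation factor, -0.06. POLR1B, the second largest polymerase I subunit, averaged -0.05, from -0.28 with SHP2 miR1 and 0.18 with SHP2 miR2. It read 7.70 and 7.98 in the controls, 7.52 and 7.59 under SHP2 miR1, and 8.01 and 8.02 under SHP2 miR2, so the SHP2 miR1 arrays lay below and the SHP2 miR2 arrays above both controls. Its direct difference between the SHP2 miRs was 0.46 (95% interval 0.11 to 0.81, limma adjusted p = 0.198).

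The measured snoRNP genes differed from control with opposite signs. Fibrillarin (FBL, probe set 8036777), the methyltransferase of the box C/D snoRNPs, stood at 9.36 and 9.28 in the controls, 9.64 and 9.65 under SHP2 miR1, and 9.75 and 9.78 under SHP2 miR2. All 4 SHP2 miR arrays lay above both controls, by an average of 0.38 (SE 0.12, 95% interval 0.10 to 0.66, limma adjusted p = 0.128), a difference that passed with a mean-variance trend (adjusted p = 0.00345). Dyskerin (DKC1), the pseudouridine synthase of the box H/ACA class, differed by -0.21 on average and by -0.38 with SHP2 miR1 (adjusted p = 0.146), where both arrays lay below the controls.

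In the small subunit processome and 40S group, 4 of 5 averages were below 0, against 47.2% of all genes. BYSL, which is needed for 40S maturation, stood at 7.90 and 7.57 in the controls, 7.35 and 7.10 under SHP2 miR1, and 7.57 and 7.41 under SHP2 miR2, an average difference of -0.38 (limma adjusted p = 0.202). UTP20, a scaffold of the processome, stood at 5.85 and 6.38, then 5.51 and 5.68, then 5.84 and 5.89, also -0.38 on average (adjusted p = 0.233). In both genes the SHP2 miR1 arrays lay below the controls, while SHP2 miR2 overlapped them. WDR43, a subunit of an early processome complex, differed by -0.30 and the export-linked repeat protein RRP12 by -0.05.

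RRP9, a protein bound to the U3 snoRNP that guides early cleavage, was the exception in this group. It read 7.29 and 7.32 in the controls, 7.50 and 7.51 under SHP2 miR1, and 7.84 and 7.63 under SHP2 miR2. All 4 SHP2 miR arrays lay above both controls, and the average difference of 0.32 (95% interval 0.02 to 0.61) did not pass (limma adjusted p = 0.208).

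RRP1B, a nucleolar protein of the 60S group, was the one member with all 4 SHP2 miR arrays below both controls (13.6% of all genes). Its values were 7.24 and 7.41 in the controls, 6.77 and 6.86 under SHP2 miR1, and 7.21 and 7.13 under SHP2 miR2. The average difference was -0.33 (95% interval -0.62 to -0.04, limma adjusted p = 0.192), made up of -0.51 with SHP2 miR1 (adjusted p = 0.0675) and -0.15 with SHP2 miR2. The SHP2 miR1 difference passed with a mean-variance trend (limma adjusted p = 0.0299), without dim genes (0.04) and with centring (0.0449). The 3 proteins of the PeBoW complex, which joins PES1, BOP1 and WDR12 for 60S maturation, differed in sign. PES1 stood at 7.81 and 7.98 in the controls, 8.13 and 8.01 under SHP2 miR1, and 8.16 and 8.08 under SHP2 miR2, an average difference of 0.20 (limma adjusted p = 0.414). BOP1 differed by 0.07 and WDR12 by -0.22, and all 3 intervals of these averages included 0.

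The remaining 60S members had averages between -0.21 and 0.02. The ribosome biogenesis factor NIP7 differed by -0.21, the ribosomal RNA methyltransferase NOP2 by -0.20 and the assembly factor RRS1 by -0.12. NOP16 and MRTO4, both of pre-60S particles, each had -0.06, and nucleophosmin (NPM1), an abundant nucleolar chaperone, had 0.02, with a 95% interval from -0.28 to 0.32.

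The metabolic members held the highest value of the list. ODC1, ornithine decarboxylase, which makes the first polyamine (probe set 8050240), stood at 9.01 and 9.19 in the controls, 9.63 and 9.65 under SHP2 miR1, and 9.56 and 9.46 under SHP2 miR2. All 4 SHP2 miR arrays lay above both controls, a pattern of 5 members in all (12.6% of all genes). The average difference was 0.48 (SE 0.13, 95% interval 0.18 to 0.77, 1.39-fold), with a limma adjusted p of 0.0791. It was 0.54 with SHP2 miR1 (adjusted p = 0.0561) and 0.41 with SHP2 miR2 (adjusted p = 0.352). The average passed when dim genes were left out of the fit (adjusted p = 0.0456) or the spread was modelled with a mean-variance trend (adjusted p = 0.00133).

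The other metabolic members had smaller average differences. Spermidine synthase (SRM), which acts on the product of ODC1, differed by 0.09, the folate carrier SLC19A1 by 0.12 and CAD, which starts pyrimidine synthesis, by -0.17. CAD lay below both controls on both SHP2 miR1 arrays and overlapped them with SHP2 miR2, with differences of -0.34 and 0.01.

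Mitochondrial members and CDK4 gave no call. TFB2M, a mitochondrial transcription factor, read 7.72 and 7.86 in the controls, 7.42 and 7.32 under SHP2 miR1, and 7.47 and 7.83 under SHP2 miR2, -0.28 on average (limma adjusted p = 0.308). The chaperonin HSPD1 differed by 0.10 and its cochaperonin HSPE1, on the other side of the shared promoter, by -0.32. HSPE1 had the widest error of the members (SE 0.24), since its control arrays read 6.88 and 7.86; without CTRL miR replicate 2 its average was 0.17. CDK4, the kinase that starts the cell cycle with D-type cyclins, read 8.98 and 8.90 in the controls, 9.02 and 9.17 under SHP2 miR1, and 9.08 and 9.11 under SHP2 miR2. All 4 SHP2 miR arrays lay above both controls by little, 0.15 on average (limma adjusted p = 0.528).

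**Figure D4:**
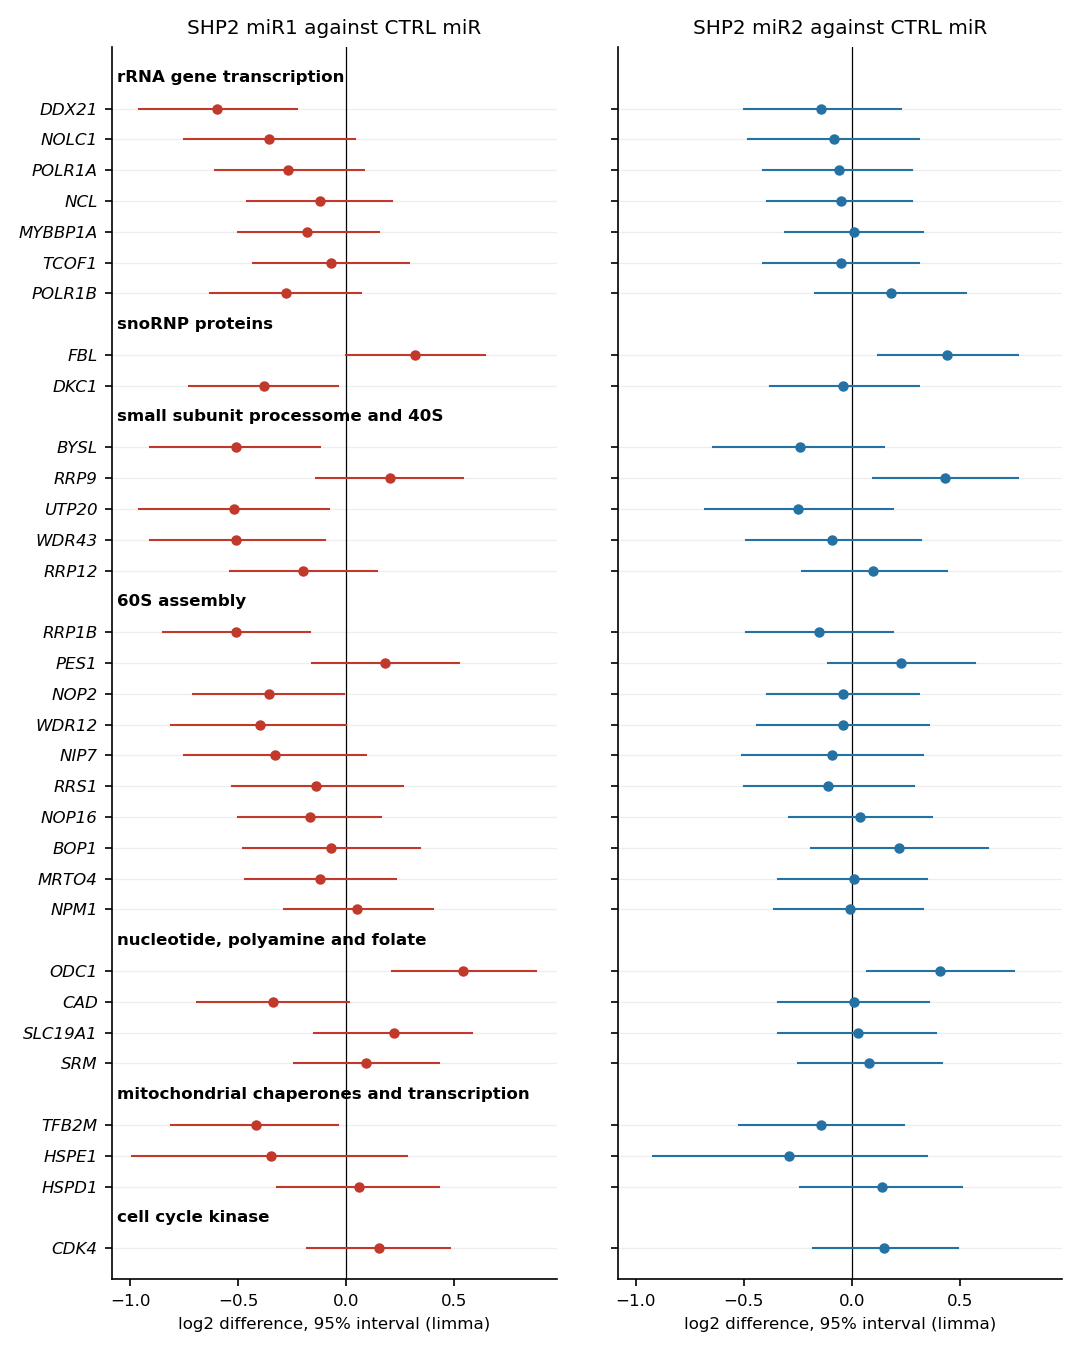
Fitted log2 difference of each member from CTRL miR with its 95% interval from limma, for SHP2 miR1 (left) and SHP2 miR2 (right), 2 arrays a group. An interval leaves out 0 where the unadjusted p is under 0.05. With SHP2 miR1 this held for 10 members, against 16% of all genes as lower and 12.1% as higher. With SHP2 miR2 it held for FBL, RRP9 and ODC1, against 5.88% of all genes as lower and 5.14% as higher. No member passes after adjustment over all genes.

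The control arrays also differed between themselves. CTRL miR replicate 2 read above replicate 1 in 24 of 32 members, with a median gap of 0.17, while over all genes 50.1% did so with a median of 0. The members' median deviation from the control mean was -0.08 and 0.08 on the control arrays, -0.19 and -0.21 on the SHP2 miR1 arrays, and -0.04 and 0.05 on the SHP2 miR2 arrays. Only the SHP2 miR1 arrays lay outside the span of the controls. Without CTRL miR replicate 1 the members' average median was -0.18.

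The members with an E-box lay on both sides of 0. The 16 members with an E-box had a median average difference of 0.02, with 8 below and 8 above 0. The 10 members with a window and no E-box had a median of -0.17, with 9 below 0, and the 6 members without a window in the table had -0.09. Over all genes 47.2% were below 0 on average. These splits of the members are descriptions with no test.

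Other genes of the same routes were listed by function, without the members and with earlier results of these data known. Over all genes 4.2% passed on average. Unadjusted p-values under 0.05 were found for 12.6% of all genes as lower and 8.31% as higher. RNA polymerase I machinery gave 0 calls among 18 genes in limma, with 2 at an unadjusted p under 0.05 on average; POLR1H differed by 0.30 on average (limma adjusted p = 0.215) and POLR2K, a subunit shared by all 3 polymerases, by -0.32 (adjusted p = 0.234). The snoRNP core and assembly list gave 0 of 14 and 1 at an unadjusted p under 0.05, with the box C/D assembly factor ZNHIT6 at -0.56 (adjusted p = 0.163) and the helicase RUVBL2 at 0.25 (adjusted p = 0.291).

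In the small subunit and 40S list 0 of 40 genes passed on average, where 4.2% of all genes did. An unadjusted p under 0.05 was found for 9, against 12.6% of all genes as lower and 8.31% as higher. MPHOSPH10, a U3 protein, had the smallest adjusted p (-0.66, limma adjusted p = 0.097). With a mean-variance trend 6 of 40 passed as lower, among them MPHOSPH10 (limma adjusted p = 0.0291) and ESF1 (adjusted p = 0.0397). The share of all genes passing with that trend was not set beside this count. With SHP2 miR1, 5 of 40 fell (5.94% of all genes fell) and 0 rose: ESF1, UTP15, UTP3, WDR36 and UTP6. ESF1, a nucleolar processing factor, read 5.70 and 6.46 in the controls, 4.77 and 4.99 under SHP2 miR1, and 5.57 and 6.07 under SHP2 miR2. It fell by 1.21 with SHP2 miR1 (SE 0.26, adjusted p = 0.026). The list's median with SHP2 miR1 was -0.35, against 0.04 for all genes and -0.12 for the brightest 25% of genes. Fewer of the 5 passed when CTRL miR replicate 2 or any SHP2 miR array was left out. Such a fit leaves 1 array in a group and has less to estimate spread from. The lost calls therefore cannot be tied to the array left out.

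The 60S assembly and export list held the clearest calls. On average 3 of 42 genes fell (2.67% of all genes fell) and 0 rose. EFL1, the GTPase that releases eIF6 from the 60S subunit, read 6.06 and 6.19 in the controls, 4.69 and 4.74 under SHP2 miR1, and 5.85 and 5.88 under SHP2 miR2. It fell by 0.83 on average (SE 0.13, limma adjusted p = 0.00824) and by 1.41 with SHP2 miR1 (adjusted p = 0.000959), against a difference of -0.26 with SHP2 miR2 (adjusted p = 0.564). The direct difference between the SHP2 miRs, 1.15, passed too (adjusted p = 0.0304), so the SHP2 miR1 arrays stood apart from the other 4.

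LYAR, a nucleolar zinc finger protein, fell by 0.76 (limma adjusted p = 0.0136) from 7.98 and 8.11 to 7.02 and 7.03 under SHP2 miR1, and 7.63 and 7.46 under SHP2 miR2. CEBPZ, a pre-60S factor, fell by 0.79 (adjusted p = 0.0357). Both groups of SHP2 miR arrays lay below the controls in all 3 genes. With SHP2 miR1, 7 of 42 fell, where 5.94% of all genes fell: these 3 with RPF1, BRIX1, PAK1IP1 and SURF6. The list's median with SHP2 miR1 was -0.36, and 34 of its 42 genes were below 0. Over all genes the median was 0.04, with 45.9% below 0. In the brightest 25% of genes it was -0.12, with 63.2% below 0. The list was not matched to those genes by brightness. With any 1 array left out the EFL1 call with SHP2 miR1 still passed. Other calls of this list, and the 3 average calls, were lost in some of these fits. Such fits leave 1 array in a group, so the loss cannot be tied to the array left out.

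**Figure D5:**
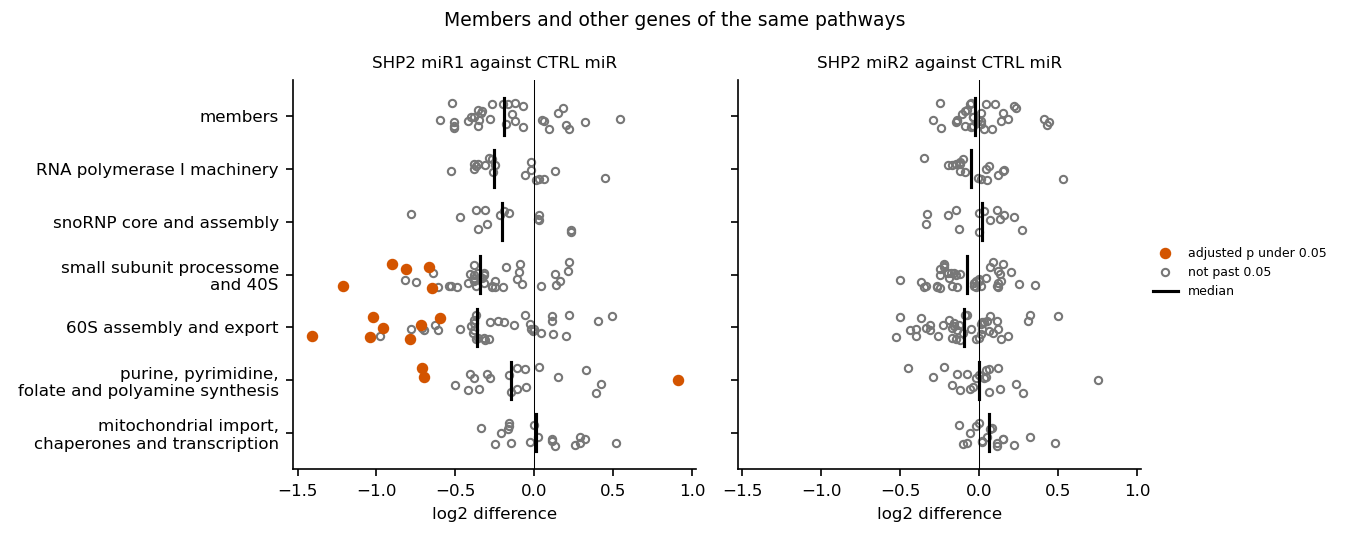
Fitted log2 difference of each member and of each gene in 6 functional lists, for SHP2 miR1 (left) and SHP2 miR2 (right) against CTRL miR; filled points passed an adjusted p of 0.05 and bars mark medians. Filled points with SHP2 miR1 number 5 of 40 in the small subunit list and 7 of 42 in the 60S list. They number 3 of 21 in the purine, pyrimidine, folate and polyamine list, and SHP2 miR2 has none. Over all genes 8.6% passed with SHP2 miR1 and 0.37% with SHP2 miR2.

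In the purine, pyrimidine, folate and polyamine list 1 of 21 genes rose and 1 fell on average. Over all genes 1.53% rose and 2.67% fell. SHMT1, a cytosolic serine hydroxymethyltransferase of folate metabolism, read 6.07 and 5.88 in the controls, 6.80 and 6.96 under SHP2 miR1, and 6.81 and 6.64 under SHP2 miR2, and rose by 0.83 (SE 0.14, limma adjusted p = 0.012). PPAT, which commits phosphoribosyl pyrophosphate to purine synthesis, fell by 0.58 (adjusted p = 0.0483), a call lost with any 1 array left out. With SHP2 miR1 spermine synthase (SMS), which lies after SRM in the polyamine route, also fell, by 0.70 (adjusted p = 0.025). In the mitochondrial list 0 of 18 passed and 2 had an unadjusted p under 0.05, with the import protein TIMM44 at 0.30 (adjusted p = 0.209) and the chaperone TRAP1 at 0.50 (adjusted p = 0.0614). TRAP1 passed with a mean-variance trend (limma adjusted p = 0.000669), without dim genes (0.0339), and with quantile (0.0454) or cyclic loess normalization (0.0486).

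Disturbed ribosome assembly is known to stabilise p53 through free ribosomal proteins. Of 11 genes for nucleolar stress and p53 targets, 1 rose on average, where 1.53% of all genes rose, and 0 fell, where 2.67% fell. The gene was SESN1, a sestrin that restrains growth signalling. It rose by 0.76 (SE 0.13, limma adjusted p = 0.0135), from 7.01 and 6.97 to 7.75 and 7.92 under SHP2 miR1, and 7.68 and 7.62 under SHP2 miR2. With SHP2 miR1 SESN1 and BBC3 rose, the latter by 0.75 (limma adjusted p = 0.0401), where 2.66% of all genes rose. GADD45A fell by 0.89 (adjusted p = 0.00807), where 5.94% of all genes fell. The list's called genes therefore went both ways. The average calls of SHMT1 and SESN1 did not pass when either control array was left out, in fits that leave 1 control array. Genes named from SHP2 miR1 calls alone and the called markers were chosen after their values were seen.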

How the data were processed

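The authors deposited log2 values per probe set, already processed with R 2.10 and oligo 1.8, per the submitters' processing notes. The log base was taken as 2 from the spread of values. How they corrected background, normalized arrays and summarised probes, and on which genome build, is not given in the sources used here. Other choices at these steps could change small differences. Of 28869 probe sets, 19310 had 1 symbol in the platform annotation, 1752 several and 7807 none; the brightest 1-symbol probe set of each gene was kept.

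The 3 groups entered 1 linear model over all arrays (limma 3.58.1, R 4.3.3, eBayes), which had 3 residual and 6.1 prior degrees of freedom. Two-sided p-values were adjusted by the Benjamini-Hochberg method over 18377 genes, with a threshold of 0.05. The number of arrays limits the precision. Members and lists were chosen with earlier results of these data known. By rule, every member is named; array values are given for PTPN11, MYC, the 4 highest and 4 lowest average differences and the smallest p of each role group. From each pathway list the genes passing on average are named, up to 4, or else the 2 of smallest p. Array values of other members and pathway genes were added after seeing the data.

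Same-numbered replicates deviated together at r of 0.07, 0.14 and 0.01 between groups, so the numbers were not taken to pair the samples. Alternatives were a mean-variance trend, a fit without the dimmest genes (means up to the 40th percentile over probe sets), quantile, cyclic loess and median normalization, averaging probe sets, the compared groups alone, a replicate block and leaving out each array; their use on SHP2 miR1 differences, overlaps and pathway counts was added after seeing the data. Promoter windows are those of RefSeq on GRCh38.p14, matched by symbol; no gene coordinates were taken for the arrays.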

Additional observations from a re-analysis of the deposited data

Results flagged for a closer look

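EFL1 differed between the SHP2 miRs when they were compared directly: SHP2 miR2 was 1.15 log2 units above SHP2 miR1 (limma adjusted p = 0.0304). POLR1B had both SHP2 miR1 arrays below and both SHP2 miR2 arrays above both controls. Its direct difference of 0.46 did not pass (limma adjusted p = 0.198).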

How the results depend on the processing

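With 2 arrays a group and values as deposited, the choice of variance prior and of normalization decided whether single members passed. A mean-variance trend gave 3 calls on average (ODC1, FBL and DDX21), 7 with SHP2 miR1 (those 3 with WDR43, RRP1B, BYSL and DKC1) and 2 with SHP2 miR2 (FBL and ODC1). Leaving out dim genes gave 1 on average (ODC1) and 3 with SHP2 miR1 (DDX21, ODC1 and RRP1B). With SHP2 miR1, quantile and cyclic loess normalization each gave 1 (ODC1), centring on array medians 2 (DDX21 and RRP1B), and the replicate block 1 (DDX21, limma adjusted p = 0.0411); the block changed no other count of members. Among pathway genes it gave 2 average calls in the small subunit and 40S list, MPHOSPH10 (limma adjusted p = 0.0327) and ESF1 (0.0391), in place of 0. The other settings, including each array left out, gave 0 member calls. Except for centring with SHP2 miR1, the share of all genes called under these settings was not set beside these counts. The counts therefore describe single members and not the members as a set. The causes were not tested.

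The members' median moved with scaling. With quantile normalization it was -0.02 on average, -0.09 with SHP2 miR1 and 0.14 for SHP2 miR2 against SHP2 miR1. With cyclic loess it was -0.08 with SHP2 miR1 and 0.13 between the SHP2 miRs. With centring these were -0.27 and 0.31. Leaving out 1 array gave -0.18 to -0.06 on average, -0.24 to -0.16 with SHP2 miR1, -0.08 to 0.06 with SHP2 miR2 and 0.15 to 0.22 between the SHP2 miRs. Centring left 3 members in place of 6 above both controls with SHP2 miR1, and 3 in place of 5 with all 4 SHP2 miR arrays. Members with SHP2 miR2 below SHP2 miR1 numbered 4 with loess and 0 with centring, in place of 2. The shares of all genes with these patterns under these settings were not set beside the counts.

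Several small differences changed sign. On average, with quantile normalization POLR1B, RRP12, MRTO4 and TCOF1 had 0.02 each, with loess POLR1B and RRP12 had 0.02 and MRTO4 0.01, and with centring NPM1 had -0.02. With SHP2 miR1, quantile gave MRTO4 0.01, TCOF1 0.05 and BOP1 0.05, loess gave TCOF1 0.02 and BOP1 0.04, and centring gave NPM1 and HSPD1 -0.03. With 1 array left out, average differences ran from -0.09 to 0.13 for NPM1, -0.19 to 0.09 for POLR1B, -0.18 to 0.06 for MRTO4, -0.13 to 0.01 for TCOF1, -0.05 to 0.24 for HSPD1, -0.81 to 0.17 for HSPE1, -0.02 to 0.26 for SLC19A1, -0.03 to 0.18 for BOP1 and -0.15 to 0.04 for MYC. SHP2 miR1 differences ran from -0.06 to 0.16 for NPM1, -0.24 to 0 for MRTO4, -0.09 to 0.20 for HSPD1, -0.84 to 0.14 for HSPE1 and -0.27 to 0.13 for BOP1.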
